A study of Mus musculus with 222 samples.

Results

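Expression of the 4 ERBB receptor genes (Egfr, Erbb2, Erbb3 and Erbb4) and of the adaptor gene Grb7 was followed through spontaneous mammary tumors of MMTV-ErbB2 mice and normal mammary glands of MMTV-ErbB2 and wild type mice. These are 5 of the 19938 genes that had a probe set with a single gene symbol, and each had exactly 1 such probe set (Erbb2, 10380896; Erbb3, 10373467; Erbb4, 10355278; Egfr, 10374366; Grb7, 10380927). A further probe set is annotated to both Erbb2 and Sympk and was not used. In MMTV-ErbB2 mice, the ErbB2 proto-oncogene is driven by the promoter of the mouse mammary tumor virus, which is active in mammary epithelium. The probe set may also detect the transgene and cannot separate it from the Erbb2 gene of the mouse, so its value may hold both.

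The study hybridized RNA of each tumor or gland to its own Affymetrix mouse gene 1.0 ST array, to follow ERBB2-driven tumors through mice of differing genetic background. Tumors of MMTV-ErbB2 females came from F1BX mice (transgenic F1 males backcrossed to FVB/N females; 160 arrays), F1 mice (C57BL/6 x FVB/N; 28 arrays) and FVB/N mice (26 arrays). Normal glands came from FVB/N MMTV-ErbB2 mice (3 glands), F1 MMTV-ErbB2 mice (2 glands) and F1 wild type mice (3 glands), so every tumor and 5 of the 8 glands carried the transgene. The labels of the arrays give neither an age nor the way in which the normal glands were dissected.

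The arrays fell into a narrow set, with an interquartile range of 1.86 to 2.62 log2 units, and a wide set, with 3.04 to 3.35. The narrow set held 34 arrays, namely 20 F1BX tumors, 6 F1 tumors and all 8 glands. The other 188 arrays, all of tumors, were 140 F1BX, 22 F1 and 26 FVB and made up the wide set. Genotypes, backgrounds and tissues were therefore compared within 1 set, and the F1BX tumors of both sets were compared once to describe the sets. The sources used here do not say what the sets stand for. Mice are separate animals by name, but nothing says how glands were sampled. In comparisons of groups, all arrays were fitted together, so standard errors, intervals and p-values rest on a spread pooled over all groups. Most arrays are tumors of the wide set, so these p-values do not measure the spread of the compared samples alone. Where correlations are given, 1 tumor per mouse was used, namely 93 F1BX, 16 F1 and 22 FVB tumors of the wide set and all 26 tumors of the narrow set.

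The ERBB receptors are tyrosine kinases of the cell surface that signal as pairs. EGFR binds EGF-like ligands, ERBB3 binds neuregulins and ERBB4 binds both kinds, whereas ERBB2 has no known ligand of its own and is the preferred partner of the others. ERBB3 has little kinase activity and is known for recruiting PI3-kinase, ERBB4 for its part in the lactating gland through STAT5A, and GRB7 is an adaptor that docks on phosphorylated receptors and whose gene is amplified with ERBB2 in human breast cancer. In the mouse, Mien1 lies between Erbb2 and Grb7 on chromosome 11, Egfr lies elsewhere on chromosome 11, Erbb3 on chromosome 10 and Erbb4 on chromosome 1.

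Of the 5 genes, 3 had a promoter in the RefSeq table of GRCm38.p6, which gives 250 bases before and 50 after the start site. The Erbb2 promoter is shown because the transgene runs from a viral promoter and not from this one, and those of Erbb4 and Egfr because these receptors varied together among tumors. Capitals mark matches, on either strand, to 4 motifs. The GC box GGGCGG was present in 35.7% of 32851 promoters of that length, the box known as CCAAT in 37.4%, the TATA box TATAAA in 13.6% and the AP-2 motif GCCNNNGGC in 16.6%.
Erbb2, chr11:98412234-98412533 (+ strand): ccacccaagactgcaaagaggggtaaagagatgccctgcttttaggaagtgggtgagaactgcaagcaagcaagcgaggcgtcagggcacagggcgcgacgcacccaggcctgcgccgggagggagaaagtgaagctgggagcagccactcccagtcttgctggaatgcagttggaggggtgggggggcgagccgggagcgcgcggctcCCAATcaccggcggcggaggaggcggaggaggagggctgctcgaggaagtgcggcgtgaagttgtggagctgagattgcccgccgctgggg
Erbb4, chr1:69108010-69108309 (- strand): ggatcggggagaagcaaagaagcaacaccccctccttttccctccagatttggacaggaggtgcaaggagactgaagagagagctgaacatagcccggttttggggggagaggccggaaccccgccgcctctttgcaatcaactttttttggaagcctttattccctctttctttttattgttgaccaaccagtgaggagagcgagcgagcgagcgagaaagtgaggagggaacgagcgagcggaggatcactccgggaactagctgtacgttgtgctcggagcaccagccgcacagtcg
Egfr, chr11:16751953-16752252 (+ strand): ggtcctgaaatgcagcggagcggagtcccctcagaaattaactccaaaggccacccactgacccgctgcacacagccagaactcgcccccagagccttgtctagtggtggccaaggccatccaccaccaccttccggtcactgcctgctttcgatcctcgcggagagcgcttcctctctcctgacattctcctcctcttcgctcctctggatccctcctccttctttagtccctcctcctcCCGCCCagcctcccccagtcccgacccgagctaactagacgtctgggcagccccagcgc
The Erbb2 window held 1 CCAAT, 41 bases before the start site, and no match to the other motifs. In the Egfr window, 1 GGGCGG lay on the other strand and is read as CCGCCC above. Erbb4 had no match, which says only that these letters are not in this window. The GC content was 66% for Erbb2, 62.3% for Egfr and 55.3% for Erbb4, against a median of 52.7% over all promoters.

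**Figure D1:**
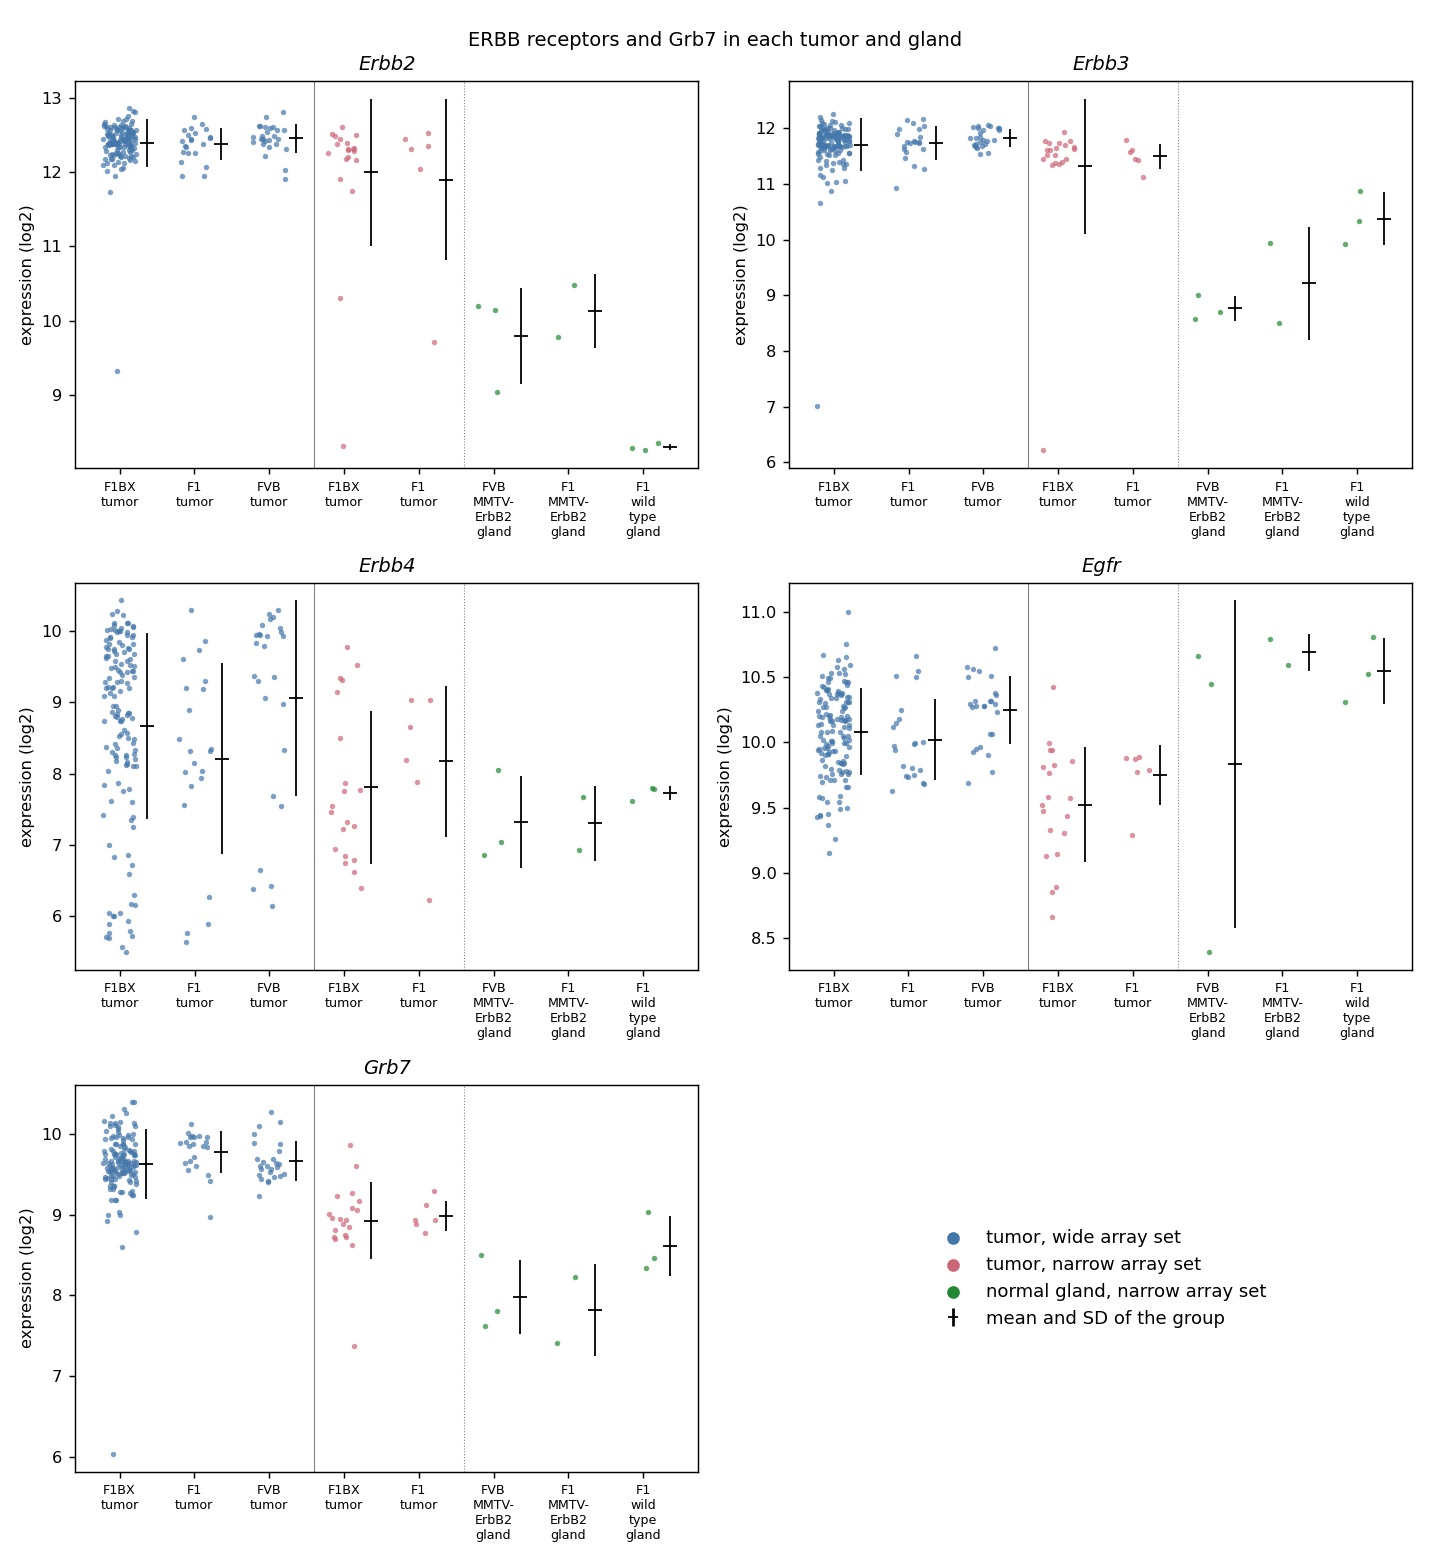
Log2 level of each gene (y axis, RMA) in every array, by group (x axis; tumors left of glands); each point is 1 array and the bars give the mean and SD. Erbb2 was higher in tumors than in wild type glands apart from tumor 092T1 (8.32), whereas Erbb4 was spread over 5.49 to 10.43 among the tumors of the wide set.

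Tumors were first compared with normal glands, within the narrow set. Among the 5 genes, Erbb2, Erbb3 and Grb7 were higher in tumors, Egfr was lower and Erbb4 did not pass the test (limma with mouse as a random block, Benjamini-Hochberg adjusted p under 0.05 over 35556 probe sets). Thus 4 of 5 genes were called, where 58.6% of all probe sets were called. With an FDR no higher than 0.005 and a fold no smaller than 2 in the same limma fit, Erbb2 and Erbb3 were called, and 12.3% of all probe sets. The methods of the study used these thresholds with SAM and a further filter on the SD over all samples, which was not applied here.

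Erbb2 ranged from 8.32 to 12.60 in the 26 tumors of the narrow set, with a median of 12.31. The FVB MMTV-ErbB2 glands had 10.14, 9.05 and 10.20, the F1 MMTV-ErbB2 glands 9.78 and 10.48, and the F1 wild type glands 8.27, 8.30 and 8.35. All but 3 tumors lay above every gland. The mean was 11.97 ± 0.99 in tumors and 9.32 ± 0.94 in glands (SD, n = 26 and 8), a difference of 2.65 (SE 0.18, 6.28-fold, adjusted p = 1.18e-33 by limma). The 3 low tumors were 092T1 (F1BX, 8.32), F1_26T1 (F1, 9.72) and 076T1 (F1BX, 10.31).

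Erbb3 had its lowest value, 6.22, in tumor 092T1, and its median and highest tumor values were 11.58 and 11.93. In FVB MMTV-ErbB2 glands Erbb3 was at 8.71, 9.01 and 8.58, in F1 MMTV-ErbB2 glands at 8.50 and 9.93, and in F1 wild type glands at 10.34, 10.87 and 9.92. Every tumor but 092T1 was above every gland, and 2 of the 3 wild type glands were above all other glands. The difference between tumors and glands was 1.88 (SE 0.22, 3.67-fold, adjusted p = 2.03e-14 by limma).

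Grb7 spanned 7.37 to 9.87 in tumors (median 8.94). It was at 7.63, 7.81 and 8.51 in FVB MMTV-ErbB2 glands, at 7.41 and 8.23 in F1 MMTV-ErbB2 glands, and at 8.47, 9.03 and 8.34 in F1 wild type glands. Tumor 092T1 (7.37) lay below every gland. Among the other 25 tumors, the lowest (8.63) was above 7 of the 8 glands, and wild type gland 2 lay within their range. Grb7 was 0.77 higher in tumors (SE 0.16, adjusted p = 1.36e-05 by limma).

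Egfr went the other way. Tumors of the narrow set had 8.66 to 10.42, with a median of 9.67. FVB MMTV-ErbB2 glands had 10.66, 10.45 and 8.39, F1 MMTV-ErbB2 glands 10.59 and 10.79, and F1 wild type glands 10.31, 10.81 and 10.52. FVB MMTV-ErbB2 gland 3 thus lay below every tumor, while the other 7 glands lay above nearly all of them. The difference for Egfr was -0.74 (SE 0.14, 1.67-fold lower in tumors, adjusted p = 2.22e-06 by limma).

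Erbb4 lay between 6.23 and 9.77 in tumors (median 7.76). It was at 7.04, 6.86 and 8.05 in FVB MMTV-ErbB2 glands, at 6.93 and 7.68 in F1 MMTV-ErbB2 glands, and at 7.62, 7.78 and 7.79 in F1 wild type glands. The glands sat within the range of the tumors. The difference for Erbb4 was 0.43 (SE 0.51, adjusted p = 0.488 by limma).

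Markers of other cells also differed between tumors and glands. The mean of the 8 fibroblast and matrix markers ranged from 6.99 to 10.86 in tumors of the narrow set, against 9.80 to 11.23 in glands, and that of the 8 basal and myoepithelial markers from 6.93 to 8.93 against 8.01 to 10.53. Endothelium markers (6) had means of 7.37 to 9.50 in tumors against 8.13 to 9.67 in glands, and white blood cell markers (6 measured of 7) of 7.13 to 8.94 against 7.80 to 9.40. Lower in tumors were 8 of 8 fibroblast, 7 of 8 basal, 6 of 6 endothelium and 3 of 6 white blood cell markers, and 1 white blood cell marker was higher. Of all probe sets, 34.5% were lower and 24.1% higher. The mean of the 9 luminal epithelium markers averaged 10.45 in tumors and 10.26 in glands, with 4 markers higher and 2 lower. The mean of the 7 adipocyte markers averaged 7.06 in tumors and 7.55 in glands, and that of the 6 luminal progenitor markers 10.22 and 9.62. In bulk tissue, fewer cells of a type and less RNA per cell cannot be told apart. The part of fibroblasts, basal cells, endothelium, white blood cells and adipocytes in these differences was not tested. With the luminal mean as a covariate of the fit, Erbb2, Erbb3, Egfr and Grb7 kept their direction and their call.

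**Figure D2:**
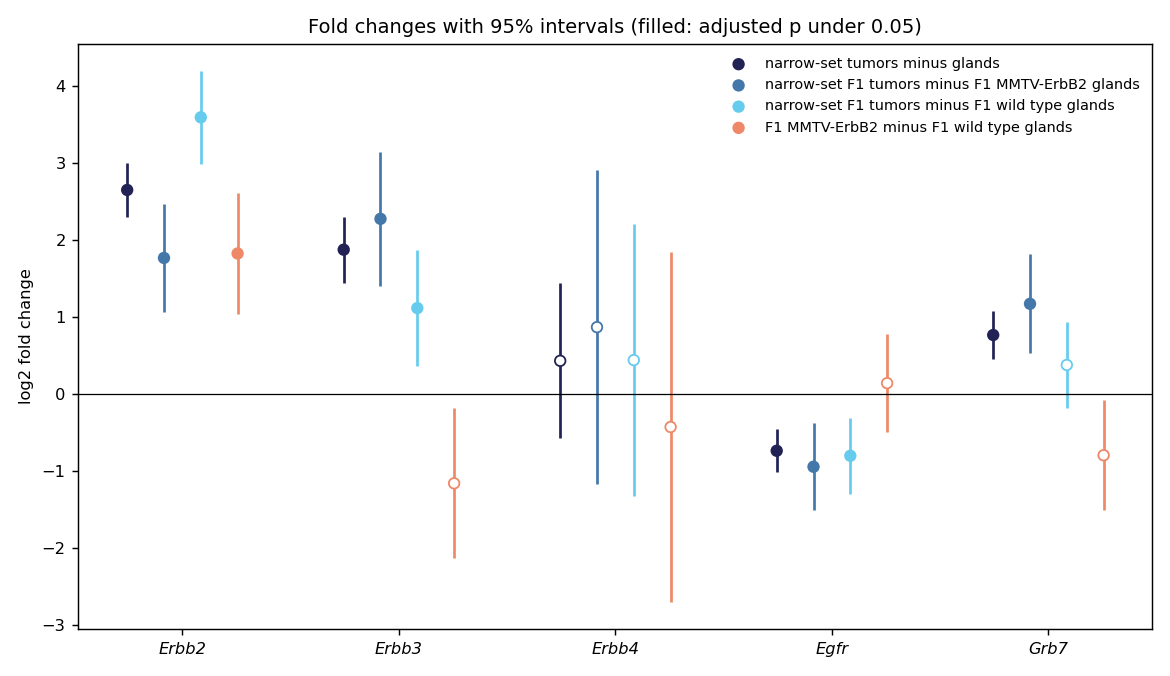
Log2 difference (y axis) with its 95% interval for each gene (x axis). Colors mark the comparisons of narrow-set tumors with glands and of F1 glands with and without the transgene. Erbb2 and Erbb3 have the largest differences between tumors and glands, and the intervals of Erbb4 span 0 in each comparison.

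Within the F1 background, the 6 tumors of the narrow set were set against glands without and with the transgene. Against the wild type glands, Erbb2 and Erbb3 were higher, Egfr was lower, and Erbb4 and Grb7 did not pass the test. These 3 genes were called, where 36% of all probe sets were called. The same 3 did not overlap between the groups, as was so for 32.6% of all probe sets. Erbb2 had 9.72, 12.33 and 12.53 as lowest, median and highest value in F1 tumors, and the 3 wild type glands lay close together, at 8.27 to 8.35. The difference was 3.59 (SE 0.31, 12.1-fold, adjusted p = 2.66e-22 by limma). Erbb3 (11.12, 11.51 and 11.78 in F1 tumors) was higher by 1.12 (SE 0.38, adjusted p = 0.0141), but without wild type gland 3 the difference was 0.89 (adjusted p = 0.129, limma). Egfr (9.29, 9.83 and 9.88 in F1 tumors) was lower, at -0.80 (SE 0.25, adjusted p = 0.00626), and at -0.67 without wild type gland 2 (adjusted p = 0.0618, limma).

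Against the F1 glands that carried the transgene, F1 tumors were higher in Erbb2, Erbb3 and Grb7 and lower in Egfr, while Erbb4 did not pass the test. Here 4 of 5 genes were called, where 25.6% of all probe sets were called. The difference of Erbb2 was 1.77 (SE 0.36, adjusted p = 2.03e-05), with tumor F1_26T1 (9.72) below both glands and the other 5 tumors above them. Erbb3 differed by 2.28 (SE 0.44, 4.84-fold, adjusted p = 9.24e-06), Grb7 by 1.17 (SE 0.33, adjusted p = 0.00283) and Egfr by -0.94 (SE 0.29, adjusted p = 0.00718), all by limma. These 3 genes did not overlap between the groups, and neither did 33.9% of all probe sets. With 1 of the 2 glands left out, Grb7 (0.76, adjusted p = 0.239, without F1 MMTV-ErbB2 gland 1) and Egfr (-0.84, adjusted p = 0.131, without F1 MMTV-ErbB2 gland 2) missed the threshold.

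The transgene was then compared with its absence in normal glands of F1 mice. Erbb2 was 1.83 higher in the 2 MMTV-ErbB2 glands than in the 3 wild type glands (SE 0.40, 3.55-fold, adjusted p = 7.52e-04 by limma). It was the 1 gene of 5 called, where 4.41% of all probe sets were called. Without F1 MMTV-ErbB2 gland 2 the difference was 1.47 (adjusted p = 0.0783, limma).

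Erbb3 and Grb7 had lower means in the MMTV-ErbB2 glands, but neither passed the test. The difference was -1.16 for Erbb3 (95% interval -2.13 to -0.19, adjusted p = 0.207 by limma) and -0.79 for Grb7 (95% interval -1.51 to -0.08, adjusted p = 0.262). The groups did not overlap for Erbb2 and Grb7, as was so for 34.3% of all probe sets, and just overlapped for Erbb3 (9.93 in the higher F1 MMTV-ErbB2 gland, 9.92 in the lowest wild type gland). Without F1 MMTV-ErbB2 gland 1 the differences of Erbb3 and Grb7 were -0.44 and -0.39, and without gland 2 they were -1.88 and -1.20, none of them called. Erbb4 (-0.43, 95% interval -2.70 to 1.85) and Egfr (0.14, 95% interval -0.49 to 0.77) had wide intervals around 0. The SD of Erbb4 was 0.53 in the MMTV-ErbB2 glands and 0.10 in the wild type glands (n = 2 and 3). Its interval rests on the spread pooled over all arrays and not on these glands alone.

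Luminal epithelium markers moved with Erbb3 and Grb7 in these glands. Their mean was 9.44 and 10.31 in F1 MMTV-ErbB2 glands, against 11.18, 11.50 and 10.93 in F1 wild type glands, and 5 of the 9 markers were lower (Cdh1, Cldn7, Elf3, Krt18 and Krt8) and none higher. Basal and myoepithelial markers had means of 8.30 and 9.06 against 10.40, 10.53 and 10.51, with 5 of 8 lower. Of all probe sets, 1.36% were lower and 3.05% higher. With the luminal mean as a covariate, the differences of Erbb3 and Grb7 were 0.49 and 0.18 and were not called (adjusted p = 0.607 and 0.909, limma). The slope of this covariate was fitted over all arrays, most of them tumors. The luminal means of these gland groups did not overlap, so the fit cannot separate genotype from luminal level here. The part of luminal cells in these differences was not tested. The level of Erbb3 less that of the luminal mean was -0.66 ± 0.40 in F1 MMTV-ErbB2 glands and -0.83 ± 0.19 in F1 wild type glands (SD, n = 2 and 3). For Grb7 it was -2.06 ± 0.04 and -2.59 ± 0.13, and the groups did not overlap (-2.09 to -2.03 and -2.71 to -2.46).

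Genetic background was compared among the tumors of the wide set. None of the 5 genes passed the test between any of the 3 backgrounds. Between F1 and FVB tumors 9.99% of all probe sets were called, between F1BX and FVB tumors 5.26%, and between F1BX and F1 tumors 2.22%, all by limma. An unadjusted p under 0.05 was reached by Erbb4 and Egfr between F1 and FVB tumors, where 26% of all probe sets reached it, and by Egfr between F1BX and FVB tumors, where 18.8% did.

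Erbb2 had lowest, median and highest values of 9.33, 12.42 and 12.86 in F1BX tumors, 11.94, 12.43 and 12.74 in F1 tumors, and 11.90, 12.46 and 12.81 in FVB tumors. The groups overlapped almost wholly, and the value of 9.33 belonged to tumor 168T1. The F1 minus FVB difference of Erbb2 was -0.07 (95% interval -0.33 to 0.18), and the F1BX minus FVB difference was -0.07 (95% interval -0.25 to 0.12). Means of Erbb3 were 11.70 ± 0.48, 11.73 ± 0.30 and 11.83 ± 0.16 in F1BX, F1 and FVB tumors, and those of Grb7 were 9.63 ± 0.43, 9.78 ± 0.26 and 9.67 ± 0.25 (SD, n = 140, 22 and 26).

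Erbb4 had the widest range of the 5 genes apart from tumor 168T1. Its lowest, median and highest values were 5.49, 8.95 and 10.43 in F1BX tumors, 5.64, 8.32 and 10.30 in F1 tumors, and 6.14, 9.81 and 10.30 in FVB tumors. The F1 minus FVB difference was -0.85 (SE 0.38, 95% interval -1.59 to -0.11, adjusted p = 0.131 by limma), and the F1BX minus FVB difference -0.42 (95% interval -0.96 to 0.12, adjusted p = 0.436). At least 9 was reached by 69 of 140 F1BX tumors (49.3%), 7 of 22 F1 tumors (31.8%) and 18 of 26 FVB tumors (69.2%). Below 7 lay 21 F1BX (15%), 4 F1 (18.2%) and 4 FVB tumors (15.4%), so low Erbb4 was found in each background. Both bounds were chosen after the values were seen and carry no test.

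Egfr averaged 10.08 ± 0.34 in F1BX tumors, 10.02 ± 0.31 in F1 tumors and 10.24 ± 0.26 in FVB tumors of the wide set. The F1 minus FVB difference was -0.23 (95% interval -0.44 to -0.03, adjusted p = 0.134 by limma). Egfr in F1BX tumors differed by -0.16 from FVB tumors (95% interval -0.32 to -0.01, adjusted p = 0.214). With array weights, both differences of Egfr were called, at -0.30 (adjusted p = 0.00911) and -0.18 (adjusted p = 0.0336, limma).

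In the narrow set, F1BX and F1 tumors did not differ by the test in any of the 5 genes (adjusted p of 0.987 or more by limma), where 0.0197% of all probe sets were called. The intervals were wide, for example -1.51 to 0.81 for Erbb4 and -0.30 to 0.50 for Erbb2.

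The array sets themselves were far apart. Among F1BX tumors, all 5 genes were higher in the wide set than in the narrow set, by 0.38 (Erbb3), 0.39 (Erbb2), 0.55 (Egfr), 0.70 (Grb7) and 0.82 (Erbb4), where 84.6% of all probe sets were called and the median probe set was 0.10 higher. The difference of Erbb3 was 0.11 without tumor 092T1 (adjusted p = 0.293, limma). Of 2 tumors hybridized once in each set, tumor 035T1 had 6.94 for Erbb4 on its repeat array in the narrow set and 5.79 on its first array in the wide set, and tumor 246T1 had 9.34 on its repeat and 10.00 on its first array. The repeat of 035T1 was thus higher and that of 246T1 lower, with the low and the high tumor keeping their order.

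The spread among tumors of the wide set was compared with that of all genes. Erbb4 had an SD of 1.33, larger than in 99.6% of genes, and its range of 4.93 log2 units is 30.6-fold. Erbb2, without tumor 168T1, had an SD of 0.19, below the median of 0.22 over all genes. The SDs of Erbb3, Grb7 and Egfr without that tumor were 0.26, 0.30 and 0.33.

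Tumors of 1 mouse were also compared with one another. Over 38 mice with 95 tumors in the wide set, the intraclass correlation was 0.08 for Erbb2, 0.04 for Erbb3, 0.05 for Erbb4, -0.05 for Grb7 and -0.09 for Egfr, against a median of 0.08 over all genes. Erbb4 was at 10.24 in tumor P10T3 and at 6.14 in tumor P10T1 of the same FVB mouse, a difference of 4.09. In mouse 292 it was at 9.75 in 1 tumor and at 6.00 in another.

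A few tumors stood apart in several genes at once. Tumor 168T1 had the lowest Erbb2 (9.33), Erbb3 (7.01) and Grb7 (6.03) of the 188 tumors of the wide set, and the next to lowest Erbb4 (5.57), but an Egfr of 10.35, above the median of 10.13. Its luminal epithelium mean of 7.88 was the lowest of the 188, where the median was 10.69. Tumor 092T1 was likewise lowest of the 26 tumors of the narrow set in Erbb2 (8.32), Erbb3 (6.22), Grb7 (7.37) and the luminal mean (7.76), with the highest means of fibroblast and matrix markers (10.86) and white blood cell markers (8.94). By contrast, F1_26T1 and 076T1, next to it in Erbb2, had the 2 highest luminal means (11.33 and 11.02) and the 2 highest basal means (8.93 and 8.77) of the narrow set. Tumor 076T1 had the highest Grb7 of that set (9.87) and F1_26T1 the lowest Erbb4 (6.23). The part of the cell makeup in these values was not tested.

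Co-variation of the 5 genes was examined over 1 tumor per mouse. Of the 10 pairs, 2 were called in each set by both Pearson's r and Spearman's rho, namely Erbb3 with Grb7 and Erbb4 with Egfr (permutation tests with 100000 resamples, adjusted over 20 correlations). The smallest p that these permutations can give is 1e-05.

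Erbb3 and Grb7 correlated with r = 0.81 and rho = 0.45 in the wide set (permutation p = 1e-05 and adjusted p = 1e-04 for both). Over the narrow set r was 0.80 (permutation p = 1.6e-04, adjusted p = 9e-04) and rho 0.57 (permutation p = 0.00277, adjusted p = 0.0138). Without the 2 tumors farthest from the median of Erbb3, r was 0.49 in the wide set and 0.52 in the narrow set, so r was smaller but still positive. Within the wide set r was 0.84 in F1BX tumors (n = 93, adjusted p = 2e-04 by permutation). In F1 and FVB tumors it was 0.49 and 0.54 (n = 16 and 22, adjusted p = 0.245 and 0.0297). The F1BX value includes tumor 168T1, the lowest of the wide set in Erbb3 (7.01) and Grb7 (6.03). Over the whole wide set r was 0.49 without that tumor, and no value for F1BX tumors without it is given. The difference between backgrounds was not tested for this pair.

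Erbb4 and Egfr also correlated, with r = 0.35 and rho = 0.40 in the wide set (permutation p = 1e-05 and adjusted p = 1e-04 for both). The narrow set gave r = 0.61 (permutation p = 9.1e-04, adjusted p = 0.00364) and rho = 0.63 (permutation p = 7.2e-04, adjusted p = 0.0048). Leaving out the 2 farthest tumors gave 0.36 and 0.61. By background in the wide set, r was 0.34 in F1BX tumors (adjusted p = 0.00495), -0.08 in F1 tumors (adjusted p = 0.902) and 0.66 in FVB tumors (adjusted p = 0.0113), all by permutation. The difference between backgrounds was not tested.

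**Figure D3:**
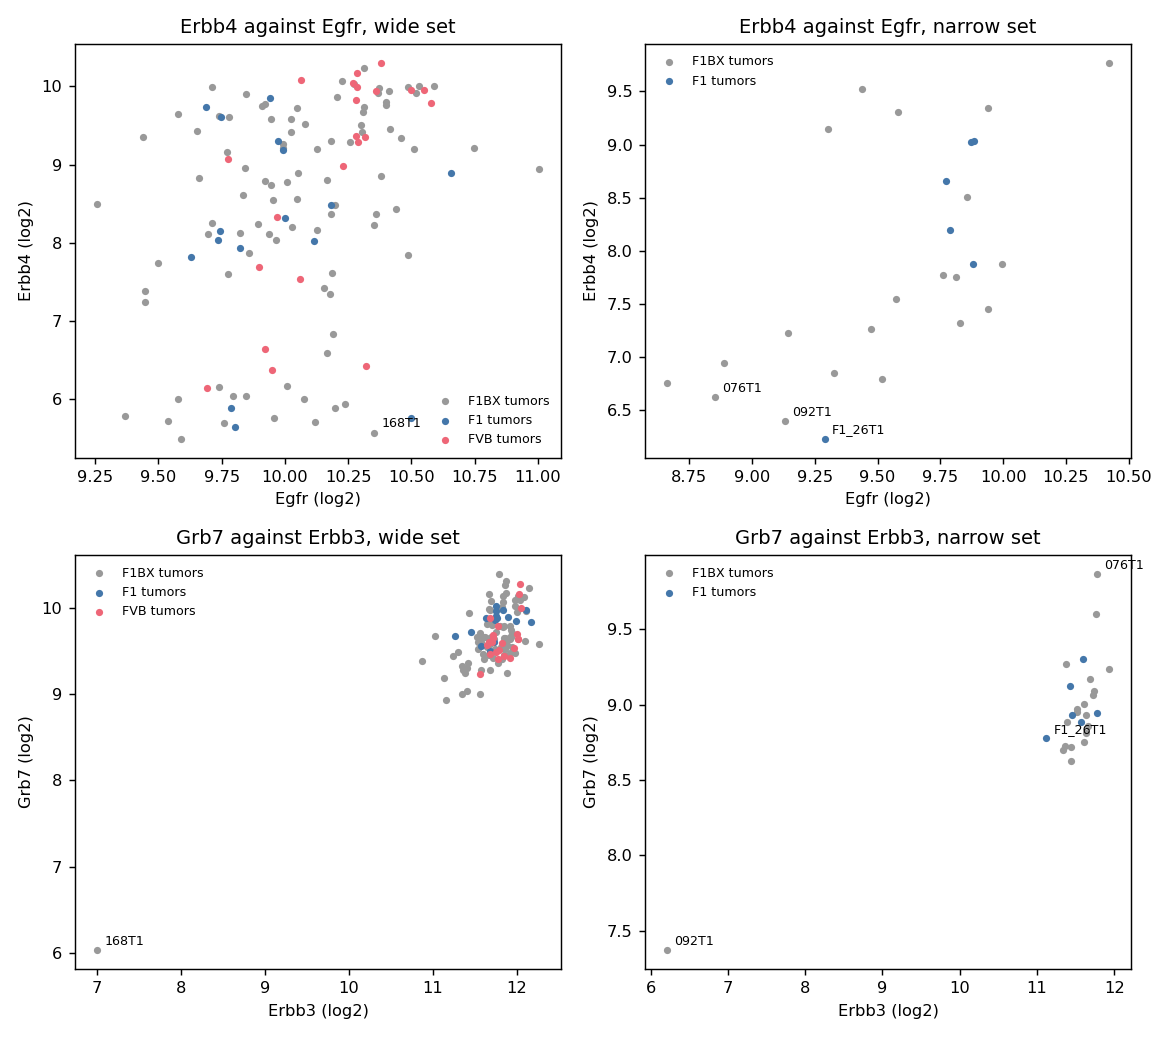
Erbb4 against Egfr and Grb7 against Erbb3 (log2, both axes), 1 point per mouse, in the wide set (left) and the narrow set (right, 26 tumors). Tumors 168T1 and 092T1 lie far below the rest in Erbb3 and Grb7, and the remaining tumors still slope upward, with r of 0.49 and 0.53 without them.

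The r of Erbb2 with Erbb3, Grb7 and Erbb4 was smaller without the tumors that stood apart. In the wide set, Erbb2 and Erbb3 had r = 0.73 (adjusted p = 0.00883) but rho = 0.10 (adjusted p = 0.374), and r was 0.06 without the 2 farthest tumors. Erbb2 and Grb7 had r = 0.68 (adjusted p = 9e-04), rho = 0.16 (adjusted p = 0.199) and r = 0.17 without those tumors, all by permutation. For Erbb2 and Erbb4, r was 0.22 (adjusted p = 0.0184) and rho 0.10 (adjusted p = 0.374), and r was 0.09 without them. Tumors of the narrow set gave r = 0.77 for Erbb2 with Erbb3 and r = -0.17 without F1_26T1 and 092T1. Erbb2 with Egfr went otherwise in the narrow set, with r = 0.43 and rho = 0.44 (adjusted p = 0.0572 and 0.0976, permutation) and r = 0.46 without F1_26T1 and 092T1, but r = 0.28 without 076T1 as well. Its r was called after centring on each background (0.46, adjusted p = 0.0435), after quantile normalization (0.47, adjusted p = 0.0293) and after removal of the luminal mean (0.52, adjusted p = 0.0107, permutation). In the values as deposited, no pair that includes Erbb2 was called by rho in either set.

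Both called pairs of the narrow set were computed again without the 3 tumors lowest in Erbb2. Without 092T1, F1_26T1 and 076T1, r was 0.48 for Erbb3 with Grb7 (adjusted p = 0.101) and 0.53 for Erbb4 with Egfr (adjusted p = 0.089, permutation), and no pair was called among 23 tumors.

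The genes most alike to each member over the wide set were listed by Pearson's r across tumors, 1 per mouse, as a description. Erbb2 and Erbb3 were both led by Epcam, a surface protein of epithelial cells (r = 0.86 and 0.89; 0.81 and 0.99 in the narrow set). Without tumor 168T1 these values were 0.41 and 0.33. Lcn2, Csn3 (a milk casein), Stk39 and Nipal2 followed for Erbb2, at 0.84, 0.84, 0.83 and 0.81. For Erbb3, Enpp3 (0.85), Lcn2 (0.83), Tfap2c, an AP-2 transcription factor (0.83), and Spint2 (0.82) followed. The nearest gene to Grb7 was Erbb3 (0.81), then Proser2 (0.81), the kinase gene Tnk1 (0.80), Arhgap8 (0.77) and Epcam (0.76). These lists all drew on 168T1, since without it the highest r of any gene was 0.47 for Erbb2, 0.58 for Erbb3 and 0.61 for Grb7.

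Erbb4 was most like Dpyd, which breaks down pyrimidines (r = 0.74), Sympk (0.74), the mitochondrial Acad9 (0.72), Slc35f2 (0.71) and the ligand gene Egf (0.71). Without 168T1 these values were 0.74, 0.75, 0.71, 0.71 and 0.71, and in the narrow set they were 0.76, 0.39, 0.81, 0.70 and 0.77. For Egfr the nearest genes were Ppt1 and Hectd3 (0.62 each), Fuca1 (0.61), Wdtc1 and Tmem234 (0.60 each), and all 5 lie on chromosome 4. Their r with Egfr in the narrow set was 0.34, -0.01, 0.69, 0.33 and 0.37.

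Of the 50 genes most like Egfr in the wide set, 38 (76%) were on chromosome 4, and of the 50 most like Erbb4, 20 (40%), where 5.85% of all genes are on that chromosome. Neither receptor gene lies there. For the narrow set, 4 and 3 of the 50 were on chromosome 4. For Erbb2, Erbb3 and Grb7 in the wide set, at most 1 of 50 was.

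Because of these lists, each member was then set against the mean level of the genes of each of 20 chromosomes, a family of 200 correlations added after the lists were seen. In the wide set, the chromosome 4 mean (610 genes) had r = 0.58 and rho = 0.65 with Erbb4 and r = 0.50 and rho = 0.52 with Egfr (permutation p = 1e-05 for each, adjusted p = 6.67e-04 for r and 3.33e-04 for rho). Without the 2 farthest tumors r was 0.57 and 0.50. That mean had an SD of 0.21, the largest of the 20 chromosomes in the wide set. Erbb4 was also called with 6 other chromosomes, at r between -0.33 and 0.33, and Egfr with 2 others, at r = -0.34 and -0.27.

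**Figure D4:**
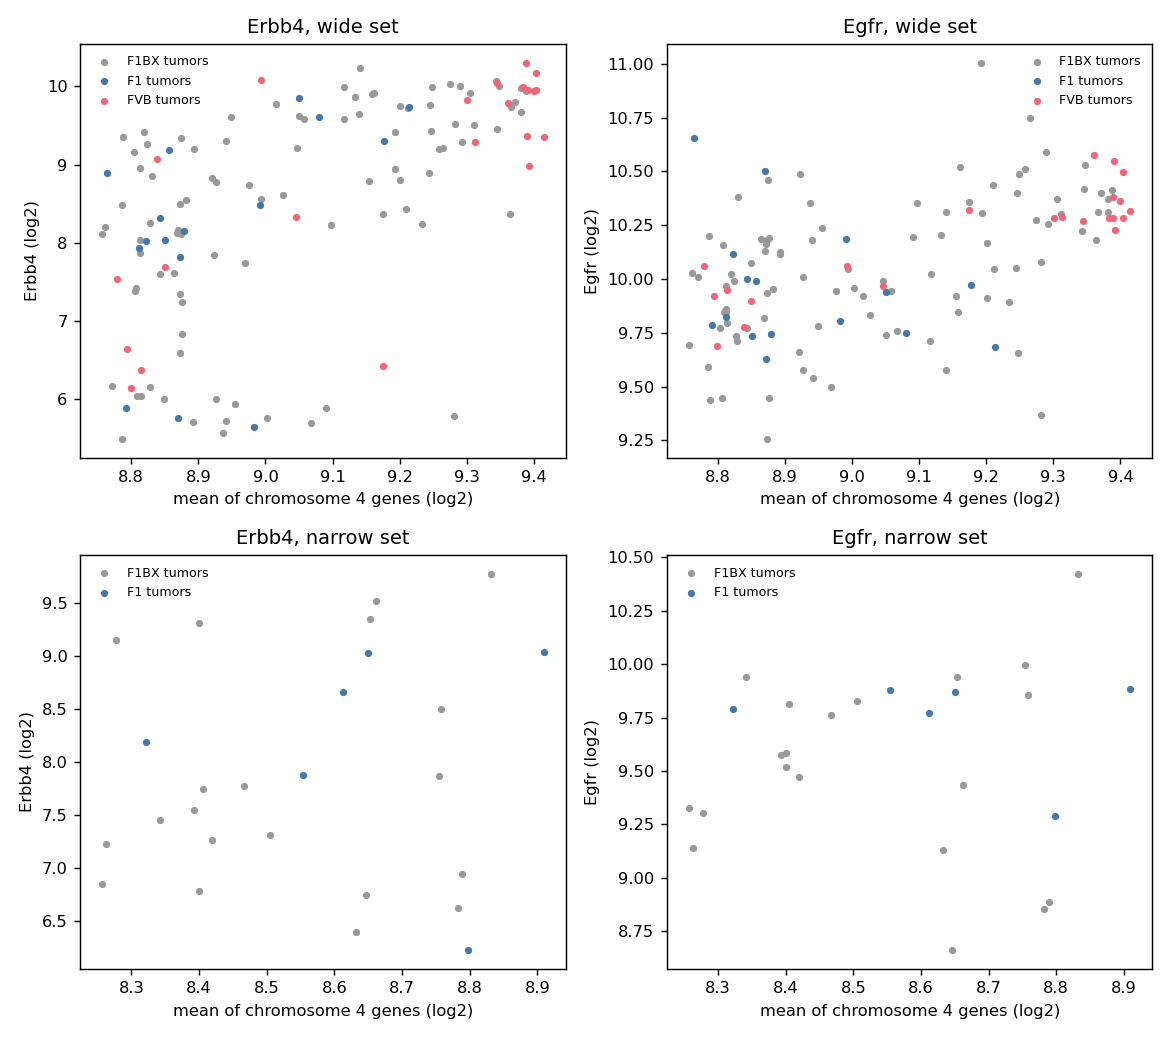
Erbb4 (left) and Egfr (right) against the mean of 610 genes of chromosome 4 (log2, all axes), 1 point per mouse, in the wide set (top) and the narrow set (bottom, 26 tumors). Both receptor genes are higher where the chromosome 4 mean is high in the wide set (r = 0.58 and 0.50), and the narrow set shows r of 0.14 and 0.07.

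By background in the wide set, the r of the chromosome 4 mean with Erbb4 was 0.53 in F1BX tumors (n = 93), 0.48 in F1 tumors (n = 16) and 0.77 in FVB tumors (n = 22), with adjusted p = 8.33e-05, 0.235 and 9.37e-04 by permutation over 25 correlations. With Egfr it was 0.47, -0.31 and 0.88 (adjusted p = 8.33e-05, 0.557 and 8.33e-05). The relation held along the chromosome, since over 5 equal stretches of its genes r was 0.48 to 0.57 for Erbb4 and 0.35 to 0.56 for Egfr. After the chromosome 4 mean was removed, Erbb4 and Egfr had r = 0.09 in the wide set (adjusted p = 0.46, permutation) and 0.61 in the narrow set (adjusted p = 0.00448). Over the tumors of the narrow set, the chromosome 4 mean had r = 0.14 with Erbb4 (adjusted p = 0.701) and 0.07 with Egfr (adjusted p = 0.848), and the difference between the sets was not tested. The only call of the narrow set was Erbb4 with chromosome 2 (r = 0.58 and rho = 0.61, adjusted p = 0.0289 and 0.0134, permutation). Without the tumor lowest in Erbb2 its r was 0.53 and not called (adjusted p = 0.0649). In the wide set Erbb4 had r = -0.17 with chromosome 2 (adjusted p = 0.178).

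Each member was also set against the mean of its own chromosome. Over all tumors of the wide set Erbb3 had r = 0.04 and rho = 0.23 with chromosome 10 and was not called (adjusted p = 0.796 and 0.0533, permutation). The call of Erbb3 rested on leaving out tumor 168T1, after which r was 0.42 and rho 0.26 (adjusted p = 6.67e-04 and 0.0296, permutation, n = 130), and 25 of its 50 most alike genes lay there. Without that tumor Erbb3 was also called with chromosome 5 (r = 0.28 and rho = 0.27, adjusted p = 0.0186 and 0.0235). With chromosome 2 it was called over all tumors (r = 0.32 and rho = 0.26, adjusted p = 0.003 and 0.0244, permutation). Without 168T1 that r was 0.21 and not called (adjusted p = 0.11). Grb7 was called with chromosome 11 over all tumors (r = 0.36 and rho = 0.27, adjusted p = 0.016 and 0.0183) and without 168T1 (r = 0.36 and rho = 0.25, adjusted p = 0.0016 and 0.034), then with 21 of its 50 most alike genes there. Erbb2 and Egfr, also on chromosome 11, had r of 0.02 and 0.01 with its mean, and Erbb4 had r = -0.13 with chromosome 1, all without 168T1. Of the 50 genes most like Erbb2 without that tumor, 12 lay on chromosome 11, its most common chromosome, and of those most like Egfr 1. Among the 9954 genes in the chromosome means, 490 are on chromosome 10 and 836 on chromosome 11. In the narrow set, without 092T1, Erbb3 had r = 0.46 with chromosome 10, which was not called (adjusted p = 0.133, n = 25).

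**Figure D5:**
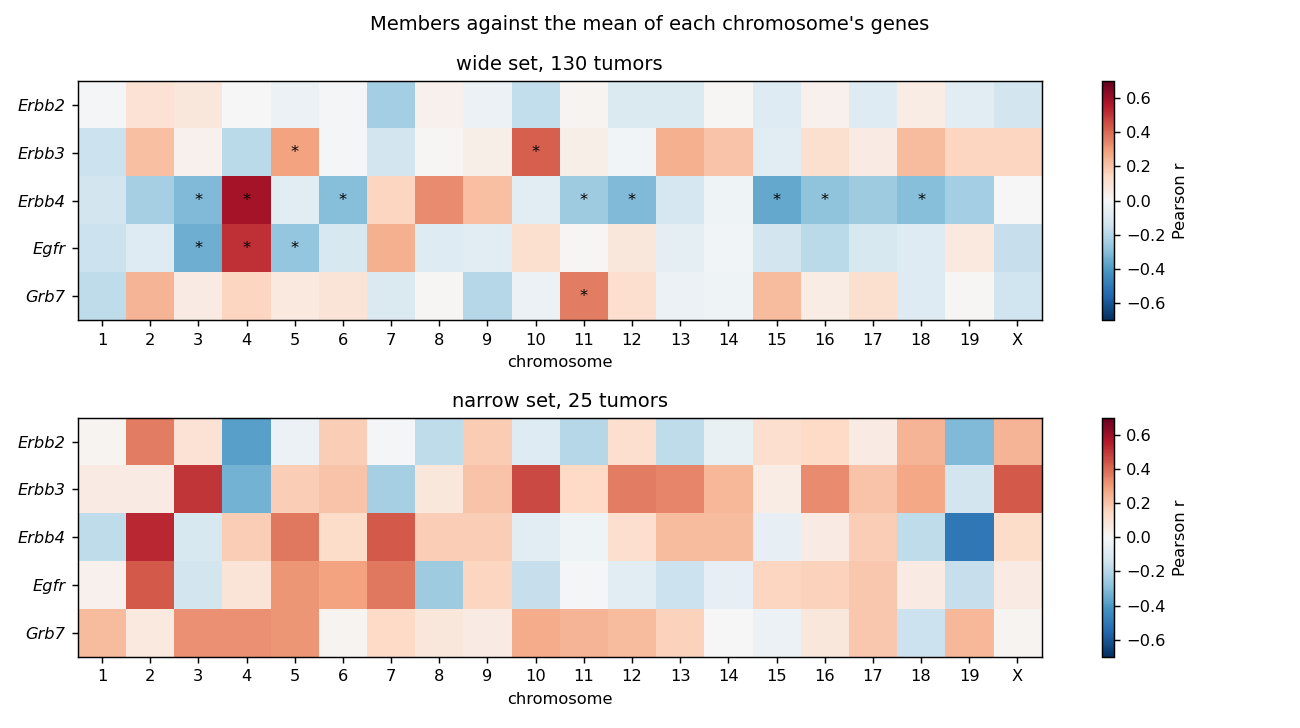
Pearson's r of each of the 5 genes (rows) with the mean level of the genes of each chromosome (columns), without tumors 168T1 and 092T1, in the wide set (130 tumors) and the narrow set (25 tumors). Stars mark r and rho that both pass an adjusted p of 0.05; the positive starred values of the wide set are those of Erbb4 and Egfr with chromosome 4, Erbb3 with chromosomes 5 and 10 and Grb7 with chromosome 11.

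Other genes of the pathway were described from lists, beside 24.1% of all probe sets higher and 34.5% lower in tumors than in glands of the narrow set (median log2 difference -0.09). Of 10 measured ligand genes, 2 were higher and 3 lower (median -0.10). Btc, which binds EGFR and ERBB4, was 0.70 higher and the neuregulin gene Nrg2 0.56 higher. Hbegf (-1.77), Nrg1 (-0.85) and Nrg3 (-0.23) were lower. Egf differed by 0.82 and was not called (adjusted p = 0.102, limma).

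Egf, the ligand gene most like Erbb4, was lower in F1 than in FVB tumors of the wide set (-1.34, SE 0.32, adjusted p = 0.00241) and lower in F1BX than in FVB tumors (-0.74, SE 0.24, adjusted p = 0.0436, limma). It was the only one of the 10 ligand genes called in either comparison, where 9.99% and 5.26% of all probe sets were called. Of the 17 adaptors and first effectors, 4 were higher and 1 lower in F1 than in FVB tumors (median 0.08), beside 4.9% and 5.09% of all probe sets. Src (0.29), Plcg1 (0.28), Stat3 (0.26) and Grb2 (0.16) were higher, and Stat5a, a transcription factor that acts with ERBB4, was lower (-0.53, adjusted p = 0.0102). Between F1BX and FVB tumors Stat5a (-0.47, adjusted p = 0.0022, limma) was the 1 gene of the 17 called, where 5.26% of all probe sets were called.

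Of 17 adaptors and first effectors, 6 were higher and 6 lower in tumors than in glands of the narrow set (median 0.03). The PI3-kinase subunit genes Pik3r3 (1.97), Pik3r1 (1.12) and Pik3ca (0.23) and the adaptor gene Shc1 (0.89) were higher. Gab2 (-1.30), Grb2 (-0.64) and Stat3 (-0.58) were lower. In the GRB7 family, Grb10 was higher (adjusted p = 0.00283, limma) and Grb14 was at -0.05 (adjusted p = 0.836), beside 0.77 for Grb7.

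Among 19 genes of receptor turnover and restraint, 7 were higher and 6 lower (median -0.08). Adam10, a protease that sheds ligands and receptors, was 1.06 higher, the deubiquitinase gene Usp8 0.97, the ubiquitin ligase genes Itch and Nedd4 0.91 and 0.90, and Rnf41, whose product marks ERBB3 for degradation, 0.34. Cblb (-2.46) and Cbl (-0.81), ubiquitin ligase genes that act on EGFR, were lower, as were Muc4 (-1.44), a mucin that binds ERBB2, and the receptor inhibitor gene Errfi1 (-0.44). In F1 MMTV-ErbB2 glands against F1 wild type glands, Muc4 was at -2.50 (adjusted p = 4.41e-04) and Gab1 at -1.41 (adjusted p = 2.31e-05, limma), both lower.

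Erbb2 had 27 listed neighbors on chromosome 11, Grb7 included, of which 10 were higher and 10 lower in tumors than in glands of the narrow set (median -0.09). Among them, Mien1 was 0.95 higher, Stard3 1.01, Cdc6 1.13 and Top2a, a gene of dividing cells, 2.17. Ikzf3, a lymphocyte factor gene, was at -2.62 and Csf3 at -2.76. Over the wide set without 168T1, the other 26 neighbors had a median r of 0.17 with Grb7, against 0.01 over all genes, as a description.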

How the data were processed

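RNA of tumors (160 F1BX, 28 F1 and 26 FVB arrays) and of 8 normal glands was measured on Affymetrix arrays. The deposited values are log2 expression values that the authors normalized by RMA in Expression Console; the sources used here name no genome build. The 35556 probe sets held values of 2.25 to 14.8, and 21789 had 1 gene symbol. Array values have no counting depth, so the number of arrays limits the precision. Each member is read from its single-symbol probe set of highest mean. The 5 members and all gene lists were chosen with earlier results of these data known.

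One limma 3.58.1 model (R 4.3.3, statmod 1.5.0) with a mean for each label group and array set was fitted to all arrays and tested on simulated data. The array sets were divided at an interquartile range of 2.8. The mouse in the tumor name was a random block (correlation 0.109). P-values were Benjamini-Hochberg adjusted over all probe sets, and intervals are 95% from the standard error. Named genes were the members, the 5 genes most like each of them and those of the lists that were called or most extreme. Correlations used 1 array per mouse and 100000 permutations in Python 3.11.15, two-sided. Labels were kept where a tumor name (051T1, 063T1) has the form of another group. The replicate numbers of the F1 glands did not pair them (correlation of deviations 0.05 and -0.04). Alternatives covered normalization, filters, mouse, array weights, SAM with 100 permutations, left-out arrays and marker means.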

Additional observations from a re-analysis of the deposited data

Results flagged for a closer look

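Among the 6 F1 tumors of the narrow set, tumor F1_26T1 had an Erbb2 level of 9.72, far below the next lowest at 12.04. Its Egfr level of 9.29 was likewise apart from the next lowest at 9.77. Of the 5 genes tested in this group, 2 had such a sample, by Dixon's criterion at 95%, where chance gives about 1 in 20 groups. Both values belong to the same tumor, which also had the highest luminal epithelium mean (11.33) and the highest basal mean (8.93) of the 26 tumors of the narrow set.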

How the results depend on the processing

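The values rest on deposited RMA values, with the array sets kept apart. The Erbb2 probe set cannot separate transgene and mouse gene, and whether it detects the transgene was not tested. Comparisons with glands have 2 to 8 glands, and only the 34 arrays of the narrow set enter them. Over all alternatives, member differences kept their direction and side of the threshold in 740 cases, reversed in 16, fell below the threshold in 11 and passed it in 8. No other probe set of a member was tried, since each had 1 with a single symbol and the one shared by Erbb2 and Sympk was left out, and the narrow set held no FVB tumors to correlate.

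For narrow-set tumors against glands, the difference of Erbb4 was 0.99 with the array sets ignored (adjusted p = 0.0463, limma). For F1 tumors against wild type glands, Erbb3 was at 0.89 with quantile normalization (adjusted p = 0.063), Erbb4 reversed to -0.04 with the array set as an additive term, and Grb7 was called at 0.99 with the sets ignored and at 0.77 with the luminal mean as a covariate. Leaving out 1 array at a time gave 0.89 to 1.36 for Erbb3 and -0.92 to -0.67 for Egfr. Against F1 MMTV-ErbB2 glands, Grb7 was at 0.59 with the luminal mean (adjusted p = 0.0965, limma). Leaving out the same arrays 1 at a time gave 0.76 to 1.58 for Grb7 and -1.04 to -0.84 for Egfr.

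For F1 MMTV-ErbB2 against wild type glands, leaving out 1 gland at a time gave 1.47 to 2.18 for Erbb2. For Erbb3 it gave -1.88 to -0.44 and for Grb7 -1.20 to -0.39, none called. Erbb3 was called with array weights (-1.14, adjusted p = 0.0055) and without 092T1 and 168T1, the tumors lowest in Erbb3 (-1.16, adjusted p = 2.14e-04), but not among F1 glands alone (-1.16, adjusted p = 0.181, limma). With the luminal mean as a covariate the sign turned for Erbb3 (0.49), Egfr (-0.08) and Grb7 (0.18), none called. The gland numbers were also used as a replicate block among F1 glands alone, although they do not pair the glands: with this block Erbb3 was at -1.39 (adjusted p = 0.0375, limma), and without it the call was lost, while 1028 probe sets were called, against 1186 among F1 glands without the block and 1567 in the fit of all arrays.

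Between backgrounds in the wide set, Egfr was called with array weights (-0.30 for F1 and -0.18 for F1BX against FVB). Differences near 0 changed sign: Grb7 in F1 against FVB (-0.06, sets ignored) and in F1BX against FVB (0.0028, array weights), Erbb2 in F1BX against F1 (-0.00031 with a filter on low signal, -0.04 with 1 array per mouse) and Erbb3 in F1BX against F1 (0.15, luminal mean). In the narrow set, F1BX against F1, Erbb2 was at -0.34 without F1_26T1, Erbb3 at 0.09 and Grb7 at 0.02 without 092T1 (and also without 168T1), and Erbb3 at 0.18 and Grb7 at 0.15 with the luminal mean. For F1BX tumors of the wide against the narrow set, Erbb3 was at 0.11 without 092T1 and 0.02 with the luminal mean, Erbb4 at 0.64 with 1 array per mouse (adjusted p = 0.0576) and Egfr at 0.16 with quantile normalization (adjusted p = 0.0646, limma).

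Pairs called by both r and rho were 2 in each set. In the wide set they were 7 after the luminal mean, 1 after the chromosome 4 mean and 0 within F1 tumors (0 by r alone). For the narrow set they were 6 after the luminal mean, and 0 both within F1 tumors (1 by r alone, by an exact permutation test) and without 092T1, F1_26T1 and 076T1. Correlations that changed sign in the wide set were Erbb2 with Erbb3 (-0.01 within F1, -0.02 within FVB tumors), Erbb2 with Egfr (0.11 after the luminal mean, 0.45 within FVB, 0.04 without 168T1), Erbb3 with Erbb4 (-0.20 within F1, -0.31 within FVB, -0.16 without 168T1), Erbb3 with Egfr (0.06 after the luminal mean), Erbb4 with Egfr (-0.08 within F1) and Erbb4 with Grb7 (-0.38 within F1). Those of the narrow set, without 092T1, F1_26T1 and 076T1, were Erbb2 with Erbb4 (-0.05) and Grb7 (-0.32), and Erbb3 with Erbb4 (-0.12) and Egfr (-0.22). Without 092T1 alone they were Grb7 with Erbb2 (-0.31), Erbb4 (-0.03) and Egfr (-0.20), and Erbb3 with Egfr (-0.17). The cause of these changes was not tested.

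Counts of probe sets called moved by over 1.5 times with the array sets ignored (23466, 18634, 657 and 100, against 12804, 9085, 1567 and 790), with array weights in 4 comparisons (2488, 7074, 5639 and 2417, against 1567, 3551, 1871 and 790) and with quantile normalization (2731 and 461, against 1567 and 790; 21 against 7). A filter on low signal gave 12787, 400 and 15036, against 20819, 790 and 30075, and 1 array per mouse 961 and 2, against 1871 and 7. The luminal mean gave 2 against 7. Without F1 MMTV-ErbB2 gland 2, 5760 probe sets were called against 9085, and without gland 1, 277 against 1567.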
